A study of Xenopus laevis with 6 samples.

Results

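Solute carriers are the membrane proteins named SLC followed by a family number, and their genes were followed here in maternal RNA from the 2 ends of the *Xenopus laevis* embryo. A gene was counted as a member when its annotated symbol begins with slc and a digit, and each was read by its brightest probe set, that with the highest mean log2 intensity over all arrays. The rule found 213 members in 46 families among the 11303 genes that the array annotation names singly. Of these, 147 carry the suffix .L and 62 the suffix .S, which mark the 2 copies (homeologs) of a gene in this allotetraploid frog.

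Total RNA was measured on 6 arrays from embryos at the 8-cell stage, whose messenger RNA was made by the mother. The animal group was 3 samples of whole animal blastomeres, which form the upper tier of the embryo. In the vegetal group were 3 samples cut from the lower tier at its vegetal-most end, whose equatorial part was discarded to widen the contrast. All 6 samples came from untreated embryos of 2 mating pairs of adult frogs, induced to mate naturally with hormone. The embryos were stripped of jelly with cysteine and fixed in ethanol and acetic acid before dissection. With 2 mating pairs, the 3 samples of a group cannot come from 3 separate clutches, and the labels do not state the clutch of each sample. The p-values thus do not rest on 3 independent clutches, and the spread between samples may be technical. The study asked which maternal RNAs are enriched in animal cells.

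Solute carriers move amino acids, sugars, ions, nucleotides and vitamins across the plasma membrane and the membranes of mitochondria, lysosomes, the endoplasmic reticulum and the Golgi apparatus, by facilitated diffusion, by exchange, or coupled to an ion gradient. A few work as pairs, as where a light chain of family SLC7 that carries the amino acid is held at the membrane by a heavy chain of family SLC3. The frog egg holds its nutrients as yolk, densest at the vegetal pole, and its transporters serve the use of that store as well as exchange with the medium.

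Intensities are the authors' scaled values on a linear scale, and differences are animal minus vegetal on the log2 scale, tested with limma over the 19523 probe sets with a mean intensity above 6.94. A difference passed when its adjusted p was under 0.05. Probe sets bind with different strength, so an intensity compares a gene between samples and does not rank genes. The 59 control probe sets for RNA not added to the samples reached at most 4.1 to 6.7 on each array, and a gene not above that level on every array of a group is given as an at-least fold. Of the pole markers, 11 of 11 vegetal RNAs (summed intensity 1924 to 2313 in animal and 30040 to 37370 in vegetal samples) and 4 of 4 animal RNAs (2887 to 3552 and 1127 to 1208) passed in the labelled direction. The ratio of the 3' to the 5' probe set of gapdh, a measure of RNA integrity and of amplification from the 3' end, was 3.96 to 4.31 in animal and 6.96 to 7.77 in vegetal samples, so it moved with the groups, and its part in the results below was not tested. Of 5 follicle cell markers, cyp17a1.L, which frog oocytes also express, was at 634 ± 12.9 in animal and 2027 ± 141 in vegetal samples (SD, n = 3), and it made up nearly all of the list's summed intensity of 628 to 651 and 1881 to 2153. The other 4 had means of at most 3.27, and 3 of them were above the controls on no array.

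The transporter RNAs were split between the poles, with more of them higher in the animal cells, a balance that turned with median centring of the arrays. Of 146 solute carrier genes tested, 48 (32.9%) were higher in the animal samples, where 27.1% of the 8026 tested genes of all kinds were, and 31 (21.2%) were higher in the vegetal samples, where 23.7% of all genes were. A difference of at least 2-fold in favour of the animal cells was seen for 16 members (11%, against 7.95% of all genes) and in favour of the vegetal pole for 9 (6.16%, against 6.57%). The 3 animal values lay wholly above or below the 3 vegetal values for 95 members (65.1%, against 58.3% of all genes). The median difference was 0.079 over the members, with quartiles of -0.303 and 0.555, and 0.0331 over all genes. In samples of this kind, fewer cells or less cytoplasm with an RNA and less of it per cell cannot be told apart.

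These counts moved with the scaling of the arrays, while members that differed by at least 2-fold with the deposited scaling kept their calls. The median of all tested probe sets lay at 0.12 with the deposited scaling, at -0.15 when each array was centred on its median and at 0.36 when the arrays were scaled to the 27 spiked control probe sets. Median centring gave 32 members higher in animal and 48 higher in vegetal samples, and the spiked controls gave 58 and 14. The share of all genes moved with them, to 14.9% and 40.9% under median centring and to 34.7% and 10.3% with the spiked controls. The counts by class and family below are to be read beside the shares of all genes. All 16 and all 9 members that differed by at least 2-fold passed in the same direction under the deposited scaling, quantile normalization, median centring and spiked-control scaling, as did 32 of the 48 and 14 of the 31 in all. Median centring and the spiked controls move every difference by the same amount, so large differences are the least affected. Over all alternatives in which they were tested, 11 of the 16 and 8 of the 9 kept their calls. The numbers of members past 2-fold moved as well, to 13 toward the animal and 14 toward the vegetal side with median centring. They were 14 and 13 with quantile normalization and 27 and 8 with the spiked controls.

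**Figure D1:**
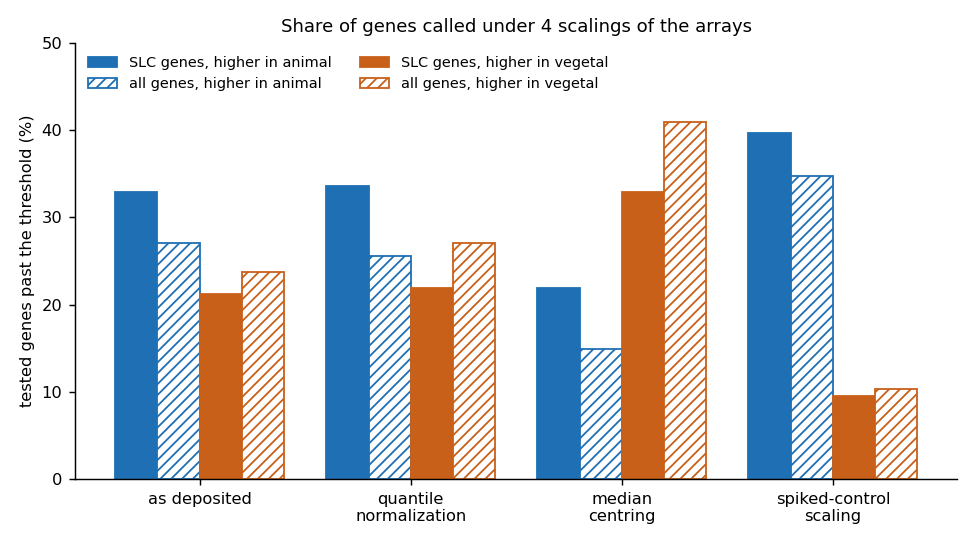
Share of tested genes that passed in each direction (percent, vertical axis) under 4 scalings of the arrays, for the 146 solute carrier genes (filled bars) and all 8026 tested genes (hatched bars). The animal share of solute carriers is above that of all genes under each scaling, from 21.9% against 14.9% with median centring to 39.7% against 34.7% with the spiked controls, and the balance of the 2 directions turns with median centring.

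The amino acid transporters held the 2 largest differences toward the animal cells. Of 36 genes for amino acid and peptide transporters, 21 were tested, of which 11 passed in the animal and 5 in the vegetal direction, with a median difference of 0.374, and 1 of the vegetal calls is slc7a6os.L, which is not a carrier. The animal calls outnumbered the vegetal ones with the deposited scaling, with quantile normalization (10 and 5) and with the spiked controls (11 and 2). With median centring the 2 counts were close, at 8 and 7, where 14.9% and 40.9% of all tested genes passed. The shares of all tested genes were 27.1% and 23.7% with the deposited scaling, 25.6% and 27.1% with quantile normalization and 34.7% and 10.3% with the spiked controls.

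slc7a8.L, the light chain LAT2 that exchanges large neutral amino acids, measured 247, 237 and 241 in the animal samples and 2.7, 2.9 and 8.7 in the vegetal samples. Only 1 of the 3 vegetal values was above the controls, so the animal level was at least 39.3-fold higher (limma adjusted p = 3.11e-09). slc3a2.S, the CD98 heavy chain with which LAT2 and the other SLC7 light chains of its kind pair, was at 93.2, 80.5 and 79.3 in animal and at 8.2, 5.1 and 7.2 in vegetal samples. It was at least 12-fold higher in the animal cells (limma adjusted p = 1.82e-08), with 2 vegetal values above the controls. Both RNAs were thus well above the controls in all animal samples and at or near the controls in the vegetal ones. Their homeologs slc7a8.S and slc3a2.L were under the intensity minimum, with means of at most 3.8, and were above the controls on no array.

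The other light chains that pair with the CD98 heavy chain had smaller fold values. slc7a7.L, which carries cationic and neutral amino acids as y+LAT1, was at 701, 719 and 729 against 346, 410 and 404, which was 1.86-fold higher in animal cells (95% confidence interval 1.63 to 2.12). slc7a6.L, its relative y+LAT2, was 1.30-fold higher (739 ± 28.2 against 571 ± 37.8, SD, n = 3), a call that ended with median centring (limma adjusted p = 0.339) and with the mean of its probe sets (0.0774). slc7a5.L, the light chain LAT1, was dim, at 22.5, 16.8 and 13.8 against 5.8, 11.7 and 7.0, and 2.22-fold higher in animal cells (1.30 to 3.80). Without animal replicate 1 the slc7a5.L call ended (limma adjusted p = 0.0812), and without the intensity minimum (0.0757), while its dimmer probe set also passed in the animal direction. Its homeolog slc7a5.S was above the controls on no array.

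The remaining SLC7 genes showed small differences. slc7a4.L, a relative of the cationic amino acid transporters, was 1.5-fold higher in animal samples, and the call ended with median centring (limma adjusted p = 0.123). slc7a3.L, a cationic amino acid transporter, was 1.25-fold higher in vegetal samples, with overlapping groups of 177 to 218 and 213 to 260.1, and its call ended without animal replicate 1 or 3 or vegetal replicate 1 or 2 (limma adjusted p = 0.0801 to 0.119) and with the spiked controls (0.765), no filter (0.103) or no mean-variance trend (0.0827). slc7a9.L, a light chain for cystine and basic amino acids whose heavy chain is encoded by slc3a1, was at 21.6 ± 2.94 in animal and 19.1 ± 6.31 in vegetal samples and did not pass, and slc3a1.L was above the controls on no array. slc7a2.2.L did not pass either, at 6.47 against 9.53. The gene slc7a6os.L is named for its place beside slc7a6 and does not encode a carrier of the family, and it was 1.34-fold higher in vegetal samples, a call lost with the spiked controls (limma adjusted p = 0.522).

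Of the SLC43 facilitators, which carry large neutral amino acids without a heavy chain, 1 gene was higher at each pole. slc43a2.L, or LAT4, was at 21.0, 24.2 and 26.1 in animal samples and at 0.2, 5.9 and 4.5 in vegetal samples, where 1 value was above the controls. The animal level was at least 4.18-fold that of the vegetal samples (limma adjusted p = 0.000337). Without vegetal replicate 1, which held the lowest value, the difference fell from 2.99 to 2.20 on the log2 scale. slc43a1.L, or LAT3, went the other way at 13.3, 10.8 and 11.4 against 37.4, 56.4 and 29.3, which was 3.35-fold higher in vegetal samples (2.21 to 5.10). The 2 genes do not overlap between groups, and both are dim.

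Among carriers that act in lysosomes or take up small amino acids, slc36a4.L, a proline and tryptophan transporter, was 3.11-fold higher in animal samples (207, 203 and 230.3 against 72.5, 68.9 and 64.4). The lysosomal glutamine transporter gene slc38a7.L was 1.87-fold higher there and slc38a10.S, another member of that family, 1.95-fold. The slc38a10.S call ended with quantile normalization and median centring (limma adjusted p = 0.0794 and 0.0825), without the intensity minimum (0.104), and without animal replicate 2 or 3 or vegetal replicate 1 (0.0695 to 0.0886). The peptide transporter gene slc15a2.L was 1.85-fold higher in animal samples, at 85.9 ± 11.3 against 46.2 ± 2.88. Its relative slc15a4.L, which carries histidine and peptides out of lysosomes, was higher in the vegetal samples, at 864, 829 and 876 against 2161, 2004 and 2177 (2.47-fold, 2.22 to 2.75). slc15a4.L lost its call when its probe sets were averaged (limma adjusted p = 0.28), the other of which was at 4.9 against 3.47, under the intensity minimum. The neutral amino acid exchanger gene slc1a5 was 1.29-fold higher in vegetal samples for .L and did not pass for .S, at 1141 ± 24.3 against 1170.0 ± 38.8. For slc1a5.L the call ended with the spiked controls (limma adjusted p = 0.604), with the mean of its probe sets (0.745), without vegetal replicate 3 (0.0688), without the intensity minimum (0.0973) and without the trend (0.0716).

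**Figure D2:**
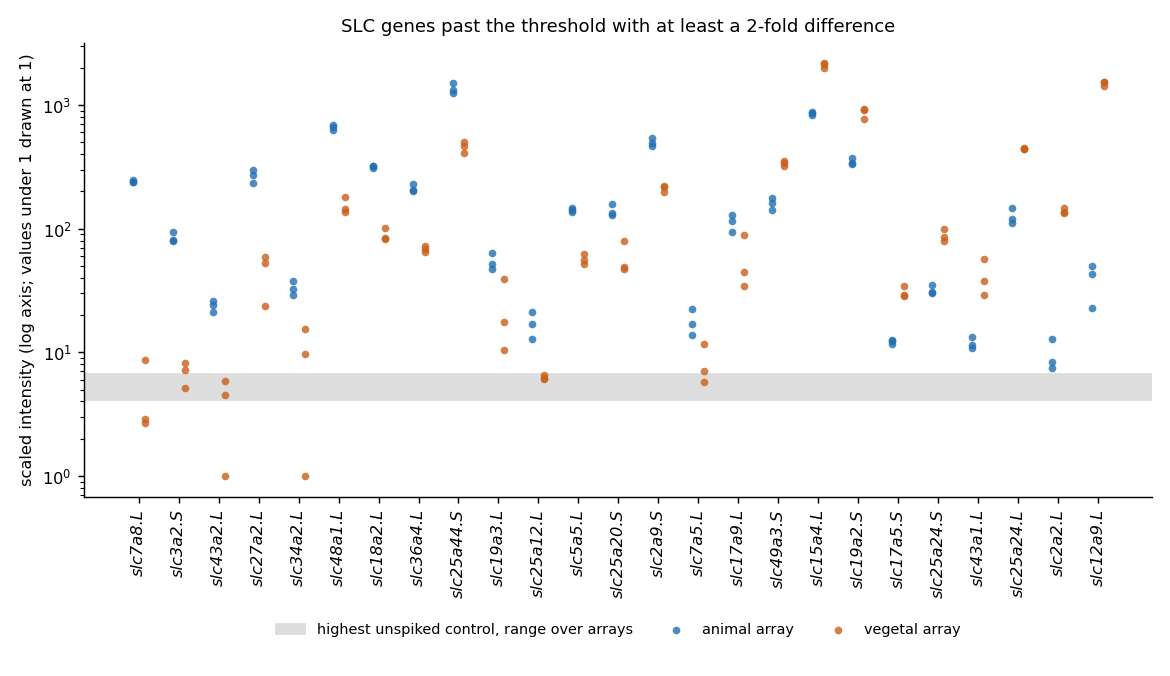
Scaled intensity of each array (log axis, values under 1 drawn at 1) for the 25 solute carrier genes that passed with at least a 2-fold difference, with animal samples in blue and vegetal samples in orange, 3 points each, ordered by their log2 difference. The grey band spans the highest unspiked control of the 6 arrays, 4.1 to 6.7, and the vegetal points of slc7a8.L, slc3a2.S and slc43a2.L fall in or near it, while slc12a9.L stands between 1429 and 1539 in vegetal samples.

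The difference toward the vegetal pole that exceeded all others among the members was that of slc12a9.L, a member of the cation-chloride cotransporter family. Its intensity was 50.2, 42.8 and 23 in the animal samples and 1524, 1429 and 1539 in the vegetal samples, 40.8-fold higher at the vegetal pole (30.1 to 55.3, limma adjusted p = 2.09e-11). All 6 values were above the controls, and the log2 difference stayed between -5.58 and -5.01 when any array was left out. No other member of family SLC12 came near it. slc12a4.L, a potassium-chloride cotransporter gene, was 1.25-fold higher in vegetal samples, a call lost with the spiked controls (limma adjusted p = 0.664). slc12a2.L, the sodium-potassium-chloride cotransporter gene NKCC1, did not pass at 119 ± 8.52 against 95.2 ± 20.3 but passed in the animal direction with the spiked controls (limma adjusted p = 0.0277) and without vegetal replicate 2 (0.0156), and slc12a8.L did not pass at 7.73 against 8.6.

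Of the 16 tested inorganic ion carriers, SLC12 included, 5 passed in each direction. With median centring 2 passed in the animal and 6 in the vegetal direction, where 14.9% and 40.9% of all tested genes did. With the spiked controls 6 and 1 passed, against 34.7% and 10.3% of all tested genes. Without SLC12 the 12 others had 5 animal and 3 vegetal calls, or 2 and 4 with median centring and 5 and 0 with the spiked controls. Of 4 tested sodium-phosphate cotransporter genes 3 passed in the animal direction and 0 in the vegetal direction, or 2 and 1 with median centring. slc34a2.L was at 32.5, 28.9 and 38 against 9.6, 15.4 and 0.7, at least 3.30-fold higher in animal cells with 2 vegetal values above the controls. Its difference of 2.64 became 1.44 without vegetal replicate 3 and 3.41 without vegetal replicate 2, and its call ended without the intensity minimum (limma adjusted p = 0.146) and without the trend (0.0653). slc20a2.L, the phosphate transporter PiT-2, was 1.89-fold higher in animal samples, at 840.0, 858 and 885 against 392, 451 and 530.0. Of its relative PiT-1, slc20a1.S differed by 0.50 and lost its call with median centring (limma adjusted p = 0.0731), and slc20a1.L, at -0.11, passed in the vegetal direction under that scaling alone (0.00795).

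Bicarbonate, calcium and sulphate carriers gave smaller differences. The sodium-bicarbonate cotransporter gene slc4a7.L was 1.29-fold higher in animal samples, and slc4a10.L, of the same kind, 1.77-fold. Both calls ended with median centring (limma adjusted p = 0.482 and 0.11), without vegetal replicate 3 (0.0574 and 0.082) and without the intensity minimum (0.0687 and 0.0656), that of slc4a7.L also without the trend (0.0549), and that of slc4a10.L also with quantile normalization (0.0967) and without animal replicate 1 or 2 (0.0505 and 0.0881). slc4a1.L, the anion exchanger known from red blood cells, was 1.34-fold higher in vegetal samples, at 475 ± 37.6 against 637 ± 39.1. Of 6 blood markers, hba-l5.L was at 349 against 316 and did not pass, and 4 were above the controls on no array (summed intensity 340 to 395 in animal and 306 to 348 in vegetal samples). slc8b1.S, the mitochondrial sodium-calcium exchanger, was 1.58-fold higher in vegetal samples and slc26a6, an anion exchanger, 1.33-fold. The vegetal calls of slc4a1.L, slc8b1.S and slc26a6 were lost with the spiked controls (limma adjusted p = 0.381, 0.118 and 0.509), and that of slc8b1.S also without the intensity minimum (0.059) and with the mean of its probe sets (0.477). slc4a11.L, among the brightest members, did not pass at 1732 ± 193 against 1704 ± 76.5.

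The glucose transporter genes of family SLC2 differed in direction from gene to gene. Of 6 tested, 3 passed toward the animal cells and 2 toward the vegetal pole. slc2a2.L, the low-affinity glucose transporter GLUT2 of liver and pancreas, was at 7.5, 8.3 and 12.7 in animal samples, just above the controls, and at 137, 146 and 135 in vegetal samples. It was 15-fold higher at the vegetal pole (10.7 to 21.1, limma adjusted p = 2.53e-09). slc2a1.L, the widespread transporter GLUT1, was 1.88-fold higher in vegetal samples at a low intensity, 23.3 ± 7.25 against 43.5 ± 12.4, and its call ended without animal replicate 1 or vegetal replicate 3 (limma adjusted p = 0.0684 and 0.0732) and without the intensity minimum (0.109). Toward the animal side stood the urate and hexose transporter gene slc2a9, with .S at 464, 542 and 489 against 197, 217 and 220 (2.36-fold, 2.04 to 2.73) and .L 1.59-fold higher, and slc2a10.S, which was 1.83-fold higher.

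Among the other genes in sugar carrier families, slc37a2.L, a sugar-phosphate exchanger gene, was 1.48-fold higher in animal samples (454 ± 22.5 against 306 ± 9.27). slc5a5.L is the sodium-iodide symporter, which shares its family number with the sodium-glucose cotransporters, and was at 146, 143 and 136 against 55.3, 62.8 and 51.9, 2.51-fold higher in animal samples (2.04 to 3.10). The other 7 of the 14 tested did not pass. The class median was 0.223 and turned to -0.0459 with median centring.

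Family SLC25 is named for mitochondrial carriers, most of which move metabolites across the inner membrane, but not all of its members do so. It was the largest family, with 34 genes and 27 tested. Of these 6 passed in each direction and 15 did not pass, with a median of -0.0912 that became 0.149 with the spiked controls. Median centring gave 3 animal and 9 vegetal calls, where 14.9% and 40.9% of all tested genes passed. The spiked controls gave 11 and 2, against 34.7% and 10.3% of all tested genes. Both homeologs of slc25a24, a calcium-regulated exchanger of ATP-magnesium for phosphate, were higher at the vegetal pole. slc25a24.L was at 112, 120 and 147 against 450, 439 and 444 (3.54-fold, 2.99 to 4.2) and slc25a24.S at 35.1, 30.1 and 30.8 against 100.1, 79.8 and 85.2 (2.76-fold, 2.12 to 3.58). slc25a25.L, a carrier of the same kind and among the 8 brightest members, was 1.27-fold higher in vegetal samples, a call lost with the spiked controls (limma adjusted p = 0.451). slc25a27.L, an uncoupling-protein relative, was 1.91-fold higher there at a low intensity, and lost its call with the spiked controls (limma adjusted p = 0.0673).

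In the animal direction, slc25a44.S, which imports branched-chain amino acids into mitochondria, was at 1331, 1246 and 1512 against 411, 504 and 463, 2.97-fold higher (2.58 to 3.42). slc25a20.S, the carnitine-acylcarnitine carrier that brings fatty acids to oxidation, was at 160, 135 and 129 against 49.1, 80.0 and 47.2 (2.47-fold). Both aspartate-glutamate carriers of the malate-aspartate shuttle were higher in animal samples. slc25a12.L was at 21.0, 17 and 12.7 against 6.1, 6.6 and 6.2, at least 2.56-fold higher with 2 vegetal values above the controls, and slc25a13.L, at 1187 ± 47 against 848 ± 46.6, was 1.40-fold higher. slc25a1.L, the citrate carrier, was 1.46-fold higher in animal samples and slc25a40.L 1.39-fold. With median centring the calls of slc25a13.L, slc25a1.L and slc25a40.L ended (limma adjusted p = 0.0574, 0.197 and 0.138). The slc25a13.L call also ended with the mean of its probe sets (limma adjusted p = 0.0888), and the slc25a1.L call with quantile normalization (0.073), without the intensity minimum (0.0507) and without animal replicate 1 or vegetal replicate 3 (0.0683 and 0.0733).

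Several carriers at the centre of oxidative metabolism did not pass with the deposited scaling. slc25a5.L, an adenine nucleotide translocase that exchanges ADP for ATP, was at 2195 ± 266 against 2322 ± 139 by its brightest probe set. Its 2 dimmer probe sets both passed in the animal direction, by 0.44 and 0.84 on the log2 scale, so the probe sets of this gene disagree, and their mean passed in the animal direction (limma adjusted p = 0.000667) where median centring gave a vegetal call (0.0181). slc25a3.L, the phosphate carrier, was at 350.4 against 397, and slc25a28.S, the iron importer mitoferrin-2, at 1686 ± 93.7 against 1653 ± 107. Of these, slc25a3.L passed in the vegetal direction with median centring (limma adjusted p = 0.0019), and slc25a28.S in the animal direction with quantile normalization (0.037), the spiked controls (0.0435) and the mean of its probe sets (0.0367). A dimmer probe set of slc25a3.L leaned to the animal side and did not pass (0.18, limma adjusted p = 0.154).

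The class of organic acid and organic ion carriers had 28 genes, of which 13 were tested, 7 higher in animal samples and 3 higher in vegetal samples, with a median of 0.353. Of all tested genes 27.1% and 23.7% passed in these directions. Median centring gave 4 and 4, where 14.9% and 40.9% of all tested genes passed. The spiked controls gave 8 and 1, against 34.7% and 10.3% of all tested genes. The vesicular monoamine transporter gene slc18a2.L stood out in the animal direction at 311, 322 and 321 against 102, 82.7 and 83.9 (3.57-fold, 3 to 4.25). slc17a9.L, the vesicular nucleotide transporter, was 2.19-fold higher in animal samples with a wide spread among the vegetal values, 34.2, 88.1 and 44.6, and its call ended without the intensity minimum (limma adjusted p = 0.0867) and with the mean of its probe sets (0.174). Its relative slc17a5.S, the lysosomal sialic acid exporter sialin, was 2.51-fold higher in vegetal samples at a low intensity, 12.4, 12.6 and 11.6 against 29, 28.6 and 34.4, and its dimmer probe set did not pass.

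Carnitine and bile acid transporter relatives also split. slc22a4.L, which carries organic cations, was 1.38-fold higher at the vegetal pole, as was the carnitine carrier slc22a5.L by 1.40-fold, and both calls ended with the spiked controls (limma adjusted p = 0.382 and 0.361) and with the mean of probe sets (0.458 and 0.886). Both homeologs of slc10a7 were higher in animal samples, by 1.30-fold for .L and 1.28-fold for .S, and both calls ended with median centring (limma adjusted p = 0.434 and 0.534) and without animal replicate 2 (0.0604 and 0.0615). The .L call also ended without vegetal replicate 3 (limma adjusted p = 0.0507), the intensity minimum (0.0663) or the trend (0.0516), and the .S call with quantile normalization (0.065). slc13a4l.S, of the sulphate and carboxylate transporter family, was 1.60-fold higher there and slc22a15.2.S 1.31-fold, the latter a call lost with median centring (limma adjusted p = 0.382).

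Most of the monocarboxylate transporters, which carry lactate and pyruvate, did not pass, although 2 of them were among the 8 brightest members. slc16a3.L was at 2171 ± 106 against 2120 ± 72.4 and slc16a1.S at 1580.0 ± 68.4 against 1757 ± 97.8. With the spiked controls and quantile normalization slc16a3.L passed in the animal direction (limma adjusted p = 0.0214 and 0.000886), and with median centring slc16a1.S passed in the vegetal direction (0.00169), as it did with the mean of its probe sets (0.0117). slc16a3.S alone of the 4 tested passed with the deposited scaling, 1.64-fold higher in animal samples at 676, 687 and 631 against 426, 411 and 384. Basigin, the chaperone that brings these transporters to the membrane, was higher in vegetal samples in both homeologs, bsg.S by 1.56-fold and bsg.L by 1.41-fold. Of 7 tested genes for transporter partners and kinases 5 were higher in vegetal samples and 1 in animal samples, where 23.7% and 27.1% of all tested genes were. With the spiked controls these were 3 and 2, against 10.3% and 34.7% of all tested genes. The 7 include both copies of bsg and of oxsr1, of which oxsr1.S was higher in vegetal (-0.77) and oxsr1.L in animal samples (0.61).

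Family SLC35 is named for nucleotide-sugar transporters, which feed glycosylation in the Golgi apparatus and the endoplasmic reticulum, but not all of its members carry nucleotide sugars. It had no member that passed in the vegetal direction with the deposited scaling, where 23.7% of all tested genes did. Some smaller families with animal calls, such as SLC20 and SLC38, had no vegetal call either. Of 14 tested genes of SLC35, 6 were higher in animal samples, against 27.1% of all tested genes. With median centring the animal calls of SLC35 numbered 5 and the vegetal calls 2, where 14.9% and 40.9% of all tested genes passed. slc35e2b.L was at 394, 395 and 389 against 183, 213 and 210.3 (1.95-fold, 1.69 to 2.25). slc35b1.L, the ATP importer of the endoplasmic reticulum, was at 584, 675 and 634 against 324, 316 and 334 (1.94-fold, 1.70 to 2.21). The annotation lists a gene slc35b1 with no suffix as well, which was 1.54-fold higher in animal samples, while the dimmer probe set of slc35b1.L did not pass (-0.10).

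The other calls of the family were smaller. slc35e1.L was 1.52-fold, slc35b3, a carrier of the sulphate donor PAPS, 1.41-fold and slc35d1.L, which carries UDP-sugars, 1.27-fold higher in animal samples, and the slc35d1.L call ended with median centring (limma adjusted p = 0.563). The acetyl-CoA importer of the endoplasmic reticulum, slc33a1.L, differed in the vegetal direction by 1.17-fold, at 868, 795 and 767 against 913, 924 and 992. That call ended under quantile normalization, the spiked controls (limma adjusted p = 0.061 and 0.924), no filter (0.0563), no trend (0.106), the replicate block (0.0554) and each of 4 left-out arrays (animal replicates 2 and 3 and vegetal replicates 2 and 3, limma adjusted p = 0.0509 to 0.111).

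Metal ion transporters showed small differences. Of 23 genes 19 were tested, 3 passed in the animal and 4 in the vegetal direction, 12 did not pass, and none differed by 2-fold. The median was 0.0644 and turned to -0.204 with median centring. Under that scaling 1 passed in the animal and 6 in the vegetal direction, where 14.9% and 40.9% of all tested genes did. With the spiked controls 6 and 3 passed, against 34.7% and 10.3% of all tested genes. Of the copper importers of family SLC31, 2 of 3 tested passed in the vegetal direction with the deposited scaling and 1 with the spiked controls. These were slc31a1.S, the high-affinity importer CTR1, at 37.7, 32.5 and 42.3 against 68.4, 78.1 and 70.8 (1.94-fold, 1.49 to 2.53) and slc31a2.S at 428 ± 31.3 against 621 ± 16 (1.46-fold), whose call ended with the spiked controls (limma adjusted p = 0.146). slc31a1.L did not pass, at 65.7 against 56.9.

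Zinc transporters of families SLC30, which move zinc out of the cytosol, and SLC39, which move it in, mostly did not pass. slc30a1.L, the exporter of the plasma membrane, was at 2391 ± 161 against 2256 ± 132 and did not pass, although it did in the animal direction with quantile normalization (limma adjusted p = 7.28e-05) and the spiked controls (0.00433). slc30a2.L was 1.66-fold higher in vegetal samples, at 753, 808 and 857 against 1390.0, 1306 and 1305. Its dimmer probe set did not pass (-0.18, limma adjusted p = 0.18). slc39a7.L, which releases zinc from the endoplasmic reticulum, was 1.45-fold higher in vegetal samples. In the animal direction slc30a5.L was 1.82-fold and slc30a6.S 1.35-fold higher, which encode the 2 partners of a zinc importer of the secretory pathway, and slc39a1l.S was 1.20-fold higher. Median centring ended the calls of slc30a6.S and slc39a1l.S (limma adjusted p = 0.135 and 0.989), and that of slc39a1l.S also ended without animal replicate 2 or vegetal replicate 1 (0.0601 and 0.0597) and without the trend (0.0683).

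Among carriers of vitamins, haem, nucleosides and choline, 13 were tested, with 3 calls at each pole and a median of -0.151 that became 0.0893 with the spiked controls. Median centring gave 2 animal and 7 vegetal calls, where 14.9% and 40.9% of all tested genes passed. The thiamine transporters of family SLC19 were split. slc19a2.S, or THTR1, was at 372, 333 and 339 against 775, 921 and 905 (2.49-fold higher in vegetal samples, 2.17 to 2.85), and its dimmer probe set did not pass (0.46). slc19a3.L, or THTR2, was at 63, 51.4 and 47.3 against 17.5, 39.2 and 10.4 (2.78-fold higher in animal samples, 1.63 to 4.75), and its call ended without the intensity minimum (limma adjusted p = 0.0937). The difference between the 2 genes was not tested.

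The haem transporter gene slc48a1 was split between its homeologs. slc48a1.L was at 623, 666 and 695 against 181, 144 and 136, 4.34-fold higher in animal samples (3.67 to 5.14), and slc48a1.S at 413, 357 and 419 against 728, 764 and 857, 1.98-fold higher in vegetal samples. slc49a3.S, of the family that holds the haem exporters, was 2.12-fold higher in vegetal samples (159 ± 16.8 against 337 ± 15.3). The nucleoside transporter gene slc29a2.L was 1.17-fold higher in animal samples in a call that all 3 of its probe sets made. That call ended with median centring (limma adjusted p = 0.745), without animal replicate 2 or 3 (0.0539 and 0.0607) and without the trend (0.0611). The 3 tested choline-like transporters did not pass with the deposited scaling. All 3 passed in the vegetal direction with median centring, where 40.9% of all tested genes did. slc44a2.L, the member with the highest intensity, was at 2719 ± 311 against 2895 ± 221, and with quantile normalization it passed in the animal direction (0.12, limma adjusted p = 0.032).

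Of the 2 tested fatty acid carriers, slc27a2.L, a very-long-chain acyl-CoA synthetase that also takes up fatty acids, was at 298, 271 and 233 against 59, 53 and 23.8, 6.32-fold higher in animal samples (4.32 to 9.25). Averaged with its 2 dimmer probe sets, which were under the intensity minimum, the difference was 0.81 and did not pass (limma adjusted p = 0.0603). slc27a6.L, its relative, did not pass at 845 against 925, except in the vegetal direction with median centring (limma adjusted p = 0.00162). In family SLC66, whose proteins have a PQ-loop fold, slc66a2.1.L was 1.93-fold higher in animal samples (728 ± 62.7 against 378 ± 38.2), and both homeologs of slc66a1l were higher in vegetal samples, by 1.47-fold for .L and 1.77-fold for .S. Both slc66a1l calls ended with the spiked controls (limma adjusted p = 0.258 and 0.167). The call of slc66a1l.S also ended without the intensity minimum (limma adjusted p = 0.0773) and without animal replicate 2 or 3 or vegetal replicate 2 or 3 (0.0606 to 0.108). The adaptor gene slc9a3r1, which carries the symbol of the exchangers it binds, did not pass for either homeolog.

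**Figure D3:**
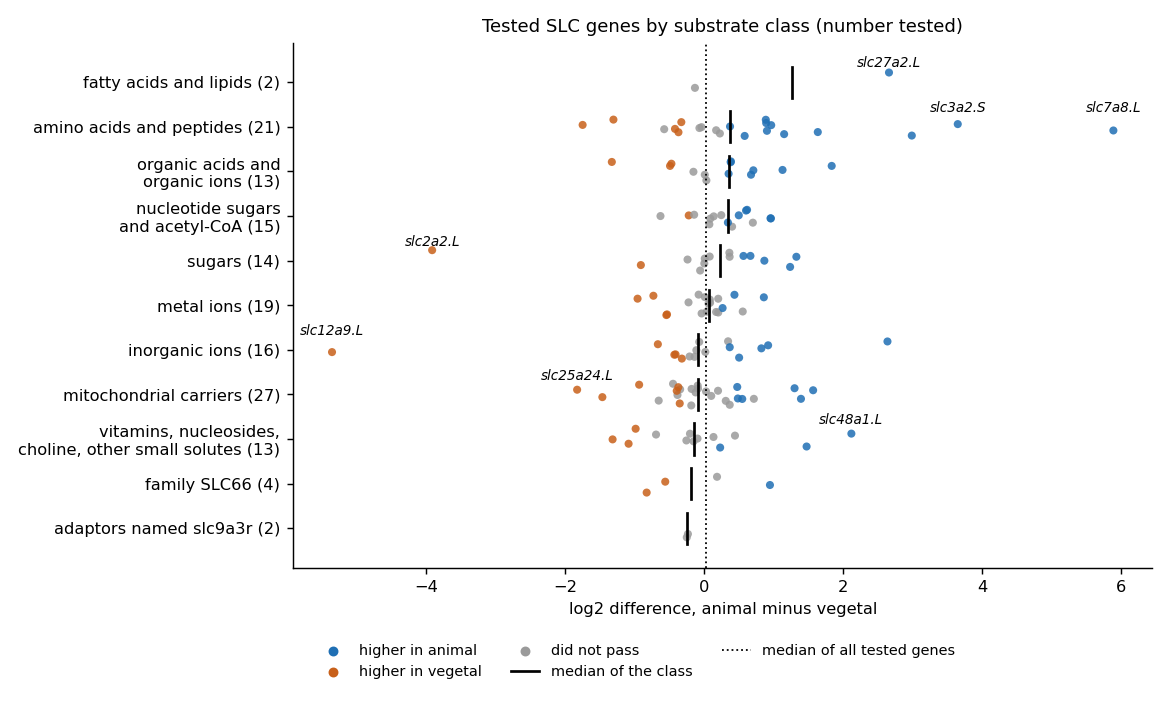
Log2 difference, animal minus vegetal (horizontal axis), of each of the 146 tested solute carrier genes by substrate class, with the number tested in parentheses; points are coloured by call, black bars are class medians and the dotted line is the median of all tested genes, 0.0331. The medians of the amino acid class (0.374), the organic ion class (0.353) and the class of SLC35 and acetyl-CoA carriers (0.343) lie to the animal side. They do so also with median centring (0.105, 0.0844 and 0.0746). The fatty acid class, with only 2 tested genes, has the highest median, 1.26, or 0.996 with median centring. slc12a9.L (-5.35) and slc2a2.L (-3.91) lie farthest to the vegetal side.

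Homeologs are the 2 copies of a gene in this allotetraploid frog, so a pair compares close copies within the same samples. Both copies could be tested for 24 solute carrier pairs, and the animal to vegetal difference itself differed between .L and .S in 10 (41.7%), where it did in 43.6% of 1357 pairs of all genes. Of the 10, slc35a2 has a copy known only as a bound, and 9 of the 23 other pairs differed. Both copies passed in the animal direction in 2 pairs, both in the vegetal direction in 2 and in opposite directions in 2 (8.33%, against 8.92% of all pairs). No share over all pairs stands beside the counts of pairs with like calls. These differences within arrays are the same with median centring and with the spiked controls. Leaving out animal replicate 3 lowered the count to 6, and that over all 1357 pairs from 592 to 468. Without each of the other arrays it was 7 or 8, and 473 to 541 over all pairs. With quantile normalization 12 solute carrier pairs differed, and 608 of all pairs.

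The pairs with opposite calls were slc48a1 and slc25a44. slc48a1.L differed by 2.12 toward animal samples and slc48a1.S by -0.98 toward vegetal samples, a gap of 3.10 (2.66 to 3.54, limma adjusted p = 6.17e-05). For slc25a44 the .S copy differed by 1.57 and the .L copy, at 622, 629 and 642 against 838, 835 and 812, by -0.39, a gap of 1.96 (limma adjusted p = 7.67e-05). The slc25a44.L call on its own ended with the spiked controls (limma adjusted p = 0.44). Only the animal call was common to all scalings in this pair, whereas both calls of slc48a1 were kept.

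The other 8 pairs held no opposite calls with the deposited scaling, and in slc30a7 and slc35a2 neither copy passed. The .S copy was more animal than the .L copy for slc25a20 (1.30 and -0.38), slc16a3 (0.71 and 0.03), slc20a1 (0.50 and -0.11), slc25a46 (0.10 and -0.37), slc30a7 (0.09 and -0.22) and slc2a9 (1.24 and 0.67). The .L copy was more animal for slc31a1 (0.20 and -0.96) and slc35a2, the UDP-galactose transporter, both copies of which were close to the controls. For slc35a2.L only 2 of 3 vegetal values were above the controls, so the gap of that pair has no exact size. The vegetal call of slc25a46.L ended without each array except animal replicate 1 (limma adjusted p = 0.054 to 0.21), with the spiked controls (0.672), with the replicate block (0.0514), without the intensity minimum (0.115) and without the trend (0.078). Among pairs that did not pass, the gap between the slc25a24 copies was -0.36 (-0.79 to 0.07) and that between the slc10a7 copies 0.03 (-0.29 to 0.35). Probes designed on one copy may also bind the other, and all of these probe sets carry the plain suffix _at given to probe sets meant for 1 transcript.

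**Figure D4:**
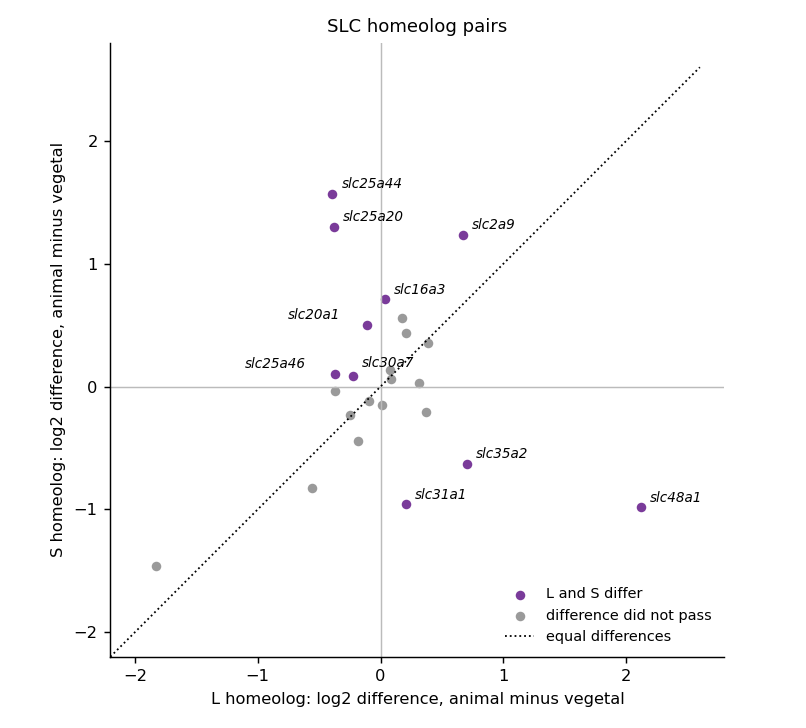
Log2 difference, animal minus vegetal, of the .L homeolog (horizontal axis) and the .S homeolog (vertical axis) for the 24 solute carrier pairs with both copies tested; purple pairs passed the test of the difference between copies, grey pairs did not, and the dotted line marks equal differences. slc48a1 lies lower right at 2.12 and -0.98, slc25a44 upper left at -0.39 and 1.57, and slc25a24 lies lower left near the line of equal differences.

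Among the 28 members with several tested probe sets, 11 had all of them past the test in 1 direction and 0 had probe sets past it in opposite directions. No share over all genes stands beside these counts, so they are not read as a trait of the members. The dimmest probe set read more animal than the brightest in 18 of the 28 (64.3%, median gap 0.255), and in 63.1% of the 1692 such genes of all kinds (0.163). The share of members that passed varied with intensity. Of 36 members with a mean intensity of 71.4 to 320, 80.6% passed, against 57% of all genes there. Of 55 dimmer members 38.2% passed, and of 55 brighter ones 52.7% (37.2% and 58.4% of all genes).

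The 67 members under the intensity minimum were spread over most classes, with 15 each among amino acid and organic ion carriers and 2 in family SLC35. Of these, 43 were above the controls on no array and 0 on all 6. A few were above the controls in the samples of 1 pole only and entered no test. slc25a22.L, a mitochondrial glutamate carrier, was at 10.9, 10.8 and 5.5 against 0.7, 1.6 and 0.4, and slc35c2.S at 6.1, 6.6 and 6.2 against 4.1, 2.2 and 0.7. Some transporters known from differentiated tissue were among the genes with no signal above the controls, such as slc2a4.L, the insulin-responsive glucose transporter, and slc32a1.S, the vesicular GABA transporter. Others known from such tissue were above the controls on all 6 arrays, such as slc2a2.L and slc4a1.L.

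Transport genes outside the symbol rule were read from the same arrays. Of all tested genes, 27.1% passed in the animal and 23.7% in the vegetal direction, or 25.6% and 27.1% with quantile normalization. These shares were 14.9% and 40.9% with median centring and 34.7% and 10.3% with the spiked controls. The counts of the lists below are to be read beside them. P-type pumps use ATP to move ions or lipids. Of 10 tested genes for these pumps and their beta subunits, 0 were higher in animal samples and 5 were higher in vegetal samples. The balance was 1 and 3 with the spiked controls and 0 and 8 with median centring. The vegetal calls include atp1b1.S, atp1b3.L and atp1b3.S, which encode beta subunits of the sodium pump and not the subunit that uses ATP. atp2a3.L, a calcium pump of the endoplasmic reticulum, was at 52.6, 47.9 and 59.5 against 533, 502 and 482 (9.51-fold, 7.97 to 11.4, limma adjusted p = 1.35e-11). The pump gene atp13a1.L was 2.17-fold higher at the vegetal pole, a call lost with the mean of its probe sets (limma adjusted p = 0.464), and atp1b1.S, a sodium pump subunit, 1.64-fold. The proton pump of acidic organelles, the V-ATPase, had 8 of 20 tested genes past the test in the animal and 5 in the vegetal direction, or 3 and 7 with median centring.

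Among 9 tested genes of families ABCA to ABCG, 2 were higher in animal samples and 1 in vegetal samples. These counts were 1 and 5 with median centring and 1 and 2 with quantile normalization. The list includes abce1.S, abcf1.L, abcf2.L and both copies of abcf3, which do not encode membrane transporters, and 1 of the animal calls was abcf3.S (0.344). abcg2.L, an exporter of haem, urate and drugs, was at 13.1, 18.1 and 8.6 against 145, 143 and 154 (11.6-fold higher in vegetal samples), and abca3.S, a lipid transporter, was 4.04-fold higher in animal samples. Of 34 tested genes that belong to solute carrier families under other symbols, 9 passed in the animal and 7 in the vegetal direction, or 3 and 10 with median centring and 15 and 1 with the spiked controls. mfsd10.S was 2.95-fold and the mitochondrial serine carrier sfxn1.L 2.38-fold higher in animal samples, and the mitochondrial uncoupling-protein gene ucp2.S was 1.98-fold higher in vegetal samples. The 2 tested aquaporin genes did not pass, except that 1 did in the vegetal direction with median centring.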

How the data were processed

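RNA from 3 animal and 3 vegetal samples was amplified with the Ovation biotin system and hybridized to one-colour Affymetrix arrays, per the labels' protocols. Linear intensity values, 1 for each probe set and sample, were deposited by the authors, who made them with GCOS, per the submitters' processing notes. The sources used here do not give its version, background correction or detection calls. A trimmed mean of 150 on each array showed a common scaling target, and no further scaling was applied. Samples were not pooled.

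Of 32635 probe sets, 96 controls stayed out of the tests. The platform annotation, which can be old, gave 1 symbol to 15495 probe sets, several to 279 and none used here to 16765, and IDs of 15384 matched the reference gene table, which changed 2 symbols, 0 of them of solute carriers. A further 3 probe sets with several symbols including a solute carrier were left out. Coordinates are left out because the sources used here name no genome build.

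Values under 1 were set to 1 before log2. The lowest 40% of probe sets by mean log2 were left out. limma (version 3.58.1, R 4.3.3) was run as lmFit followed by eBayes, with its trend option, as a two-sided test. P-values were adjusted by the method of Benjamini and Hochberg over 19523 probe sets, with a threshold of 0.05, and for homeolog pairs on the difference between copies, adjusted over 1357 pairs. Both fits were tested on simulated data. Intervals are 95%. An at-least fold compares the bright group with the higher of each dim value and that array's highest unspiked control. Precision is limited by the number of arrays, which count no molecules.

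The members, lists and tests were chosen with earlier results of these data known. Genes were named by a rule: up to 12 in each direction by size of difference, the 8 brightest, the top gene of each class and direction, all of families SLC3 and SLC7, homeologs of these, and pairs that differed. Other members are named as examples chosen after their values were seen. Classes follow the family names. Same-numbered replicates' deviations correlated at -0.0229, 0.00628 and -0.0135, so the numbers were not taken to pair samples. Alternatives were quantile normalization, median centring, spiked-control scaling, no filter and a filter of 60%, an offset of 16, no trend, a replicate block, the mean of all probe sets, and each array left out.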

Additional observations from a re-analysis of the deposited data

How the results depend on the processing

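Of the counts, those of members higher in vegetal samples moved most with scaling, from 31 to 48 with median centring and to 14 with the spiked controls, where the animal share of calls was 40% and 80.6% in place of 60.8%. With each array left out, 43 to 50 members passed toward the animal and 26 to 30 toward the vegetal side. Homeolog pairs that differ numbered 6 to 8 in place of 10, and over all pairs 468 to 541 in place of 592. Fewer samples leave fewer degrees of freedom in those fits. The other alternatives kept the counts within 1.5 times: with no filter 45 and 27 of 213, with the stricter filter 40 and 26 of 104, with the offset 50 and 32, without the trend 46 and 27, with the mean of all probe sets 49 and 29 of 144. Without the members given as at-least folds, an alternative chosen after seeing the data, they were 43 and 31.

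With the replicate number as a block, 49 members passed toward the animal and 29 toward the vegetal side. Under that fit 8 homeolog pairs differed, and 501 of all 1357 pairs. The calls of slc25a46.L (limma adjusted p = 0.0514) and slc33a1.L (0.0554) were lost.

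Among the genes named by the rule, those near 0 turned sign. With median centring these were slc4a11.L (-0.251), slc7a9.L (-0.0409), slc16a1.L (-0.258), slc16a3.L (-0.235), slc25a28.S (-0.24), slc25a46.S (-0.165), slc30a1.L (-0.186), slc30a1.S (-0.204), slc30a7.S (-0.182) and slc31a1.L (-0.065). With quantile normalization they were slc7a9.L (-0.0303), slc16a1.L (-0.0123), slc25a5.L (0.116) and slc44a2.L (0.12), and with the spiked controls slc16a1.S (0.0878), slc20a1.L (0.13), slc25a5.L (0.153), slc30a7.L (0.017), slc33a1.L (0.0201) and slc44a2.L (0.146). The mean of all probe sets turned slc25a5.L to 0.396. Leaving out arrays gave ranges across 0 for slc4a11.L (-0.0539 to 0.107), slc7a9.L (-0.0643 to 0.442), slc16a1.L (-0.16 to 0.147), slc16a3.L (-0.00459 to 0.0638), slc25a28.S (-0.0165 to 0.0817) and slc25a5.L (-0.169 to 0.00698). Of these rule-named genes, only slc33a1.L had passed with the deposited scaling. With the turned sign, slc44a2.L passed under quantile normalization (limma adjusted p = 0.032) and slc25a5.L with the mean of all probe sets (0.000667). Outside the rule, slc29a2.L (-0.0369) and slc39a1l.S (-0.0019) had passed in the animal direction and turned sign with median centring. Over the 146 members, 16 calls ended and 17 were gained with median centring, 17 and 10 with the spiked controls, 5 and 7 with quantile normalization, 9 and 8 with the mean of all probe sets, and 4 to 9 and 0 to 3 with an array left out. The cause of these changes was not tested. Members whose signal lies near the unspiked controls, in vegetal samples above all, can be given only as bounds.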
